A study of Homo sapiens with 16 samples.

Results

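Genes for immune checkpoint ligands were followed in cultured melanoma cells treated with corin, an inhibitor that joins an HDAC1/2-binding and an LSD1-binding part in a single molecule and so acts on the CoREST repressor complex. The 10 members were chosen by symbol (CD274, PDCD1LG2, CD276, CD47, SIRPA, NT5E, LGALS9, PVR, NECTIN2 and TNFRSF14) and matched by gene identifier, out of 34228 genes in the table of counts. Both cell lines are human melanoma lines that resist BRAF inhibitors. 451Lu-R is an MITF hi/AXL lo line and 1205Lu-R an MITF lo/AXL hi line, so a difference between them is a difference between 2 single lines. Bulk RNA-Seq counts were analysed for 4 groups of 2 libraries each: 451Lu-R with DMSO, 451Lu-R with 2.5 μM corin, 1205Lu-R with DMSO and 1205Lu-R with 2.5 μM corin, all after 24 hours. The 8 samples of the series that received the BRAF inhibitor PLX4032, alone or with corin, were not analysed here. The resistant lines were maintained in 5 μM PLX4032, and the sources used here do not say when it was removed before DMSO or corin. Nothing in the sources used here says whether the libraries of a group came from separate cultures, so the p-values measure the spread between libraries, which may be technical.

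Checkpoint ligands are mostly surface proteins that bind inhibitory or activating receptors on T cells, NK cells and macrophages. The members also include SIRPA, itself the receptor for CD47, and NT5E, an enzyme. CD274 (PD-L1) and PDCD1LG2 (PD-L2) bind PD-1 on T cells. PVR and NECTIN2 are shared by the inhibitory receptor TIGIT and the activating receptor CD226, and PVR also binds CD96. CD47 binds SIRPA on macrophages and restrains phagocytosis. NT5E (CD73) makes extracellular adenosine from AMP, CD276 (B7-H3) is a B7 family member, TNFRSF14 (HVEM) engages BTLA and CD160, and LGALS9 encodes galectin-9, which binds HAVCR2 (TIM-3). Interferon-gamma, acting through JAK1, JAK2 and IRF1, is the best known inducer of CD274 in tumour cells. All values here are RNA levels, and surface protein was not measured.

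The promoters of the 3 members that rose with corin in both cell lines are shown as RefSeq gives them (GRCh38.p14), 250 bases before the annotated start, 5′ to 3′ on the strand of the gene. That start is not the edge of the GENCODE gene span given below. The CD274 and PVR windows lie partly, and the CD47 window wholly, within those spans. Capitals mark matches, on either strand, to TTCNNNGAA (the gamma-activated sequence, GAS), GAAANNGAA (the core of the interferon-stimulated response element, ISRE), CACCTG (an E-box), TGACTCA (AP-1) or GGGCGG (the GC box).
CD274 (chr9:5450292-5450541, plus strand): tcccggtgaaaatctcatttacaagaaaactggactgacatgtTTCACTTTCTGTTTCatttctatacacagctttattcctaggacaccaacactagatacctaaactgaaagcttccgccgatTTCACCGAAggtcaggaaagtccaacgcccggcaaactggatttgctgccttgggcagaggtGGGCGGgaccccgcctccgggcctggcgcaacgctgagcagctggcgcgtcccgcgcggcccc
PVR (chr19:44643660-44643909, plus strand): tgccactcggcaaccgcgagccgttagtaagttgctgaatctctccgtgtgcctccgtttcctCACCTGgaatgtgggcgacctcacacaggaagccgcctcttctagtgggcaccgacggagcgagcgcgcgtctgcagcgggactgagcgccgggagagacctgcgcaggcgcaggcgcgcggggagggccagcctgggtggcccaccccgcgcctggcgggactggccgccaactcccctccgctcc
CD47 (chr3:108091032-108091281, minus strand): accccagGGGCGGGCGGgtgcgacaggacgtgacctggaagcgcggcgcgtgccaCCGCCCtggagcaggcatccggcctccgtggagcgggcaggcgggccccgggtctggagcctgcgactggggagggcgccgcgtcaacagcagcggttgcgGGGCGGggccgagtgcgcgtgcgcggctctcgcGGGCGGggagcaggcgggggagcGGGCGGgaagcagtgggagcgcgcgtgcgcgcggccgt
The CD274 window held 2 overlapping ISRE cores, beginning at -207 and -201 from the start, a GAS match at -125 and a GC box at -63. The PVR window held an E-box at -187 and the CD47 window 6 GC boxes, 2 of them overlapping. Of 35116 promoters of 300 bases (250 before and 50 after the start), 7.66% held a GAS match, 8.11% an ISRE core, 20.6% an E-box, 4.95% an AP-1 match and 45% a GC box. A match describes letters only, and binding was not measured here.

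The 8 libraries held between 9516687 and 11797788 estimated counts, and 3 counts, the floor used below, equalled 0.254 to 0.315 CPM (counts scaled to a library total of 1000000). Melanoma lineage genes separated the lines: the 13 on the list summed to 16004 and 16066 CPM in the 451Lu-R DMSO libraries and to 1418 and 1457 CPM in those of 1205Lu-R. With DMSO, 11 of them were lower in 1205Lu-R (41.5% of all genes) and 2 higher (41.0%). PMEL was the largest part of the 451Lu-R sum (8437 CPM against 0.469 in 1205Lu-R). AXL was most of the 1205Lu-R sum (961.9 CPM against 0.111 in 451Lu-R). SOX10 and TYR were at 0 counts in all 4 libraries of 1205Lu-R. Of 13 immune and stromal markers in the table (CD3D, CD3E, CD2 and NKG7 were not analysed here), PTPRC, the pan-leukocyte gene, had 0 to 3 counts in each library, and MS4A1, a B cell gene, had 0 or 1. Others had more with DMSO. CD8A, a T cell gene, had 16 and 17 counts and LYZ 19 and 33 in 451Lu-R, and PECAM1 had 100 and 104 in 1205Lu-R. The summed level of these markers was nonetheless higher with corin. It was 9.66 to 11.7 CPM with DMSO against 31.6 to 32 CPM with corin in 451Lu-R, and 13.0 to 14.6 against 37.2 to 40.4 CPM in 1205Lu-R, carried mainly by ITGAX, VWF and CSF1R. The part of these genes in the results below was not tested.

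Of the 10 members, 9 were above the floor in at least 1 group and LGALS9 was in none. In 451Lu-R, 8 members could be tested for corin against DMSO: 5 rose (41.3% of the 14530 genes tested rose) and 2 fell (38.6%). With a change of at least 2-fold also required, 2 members rose (22.2% of genes) and 2 fell (13.3%). In 1205Lu-R, 8 members were tested: 3 rose (40.4% of 14563 genes) and 4 fell (37.8%). At 2-fold, 2 rose (22.0%) and 1 fell (9.80%). Most genes changed in both lines, so a call on its own was the common outcome, and 8 members are too few to set their shares apart from that background. The median log2 fold change over the members tested was 0.74 in 451Lu-R and -0.11 in 1205Lu-R, beside 0.03 over all genes in each line. CD274, PVR and CD47 rose in both lines, NT5E and NECTIN2 went up in 451Lu-R but down in 1205Lu-R, and SIRPA and TNFRSF14 fell in 451Lu-R and PDCD1LG2 in 1205Lu-R, the lines in which they had been expressed most. All p-values are 2-sided, from edgeR's quasi-likelihood test, adjusted by Benjamini-Hochberg over all genes tested.

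**Figure D1:**
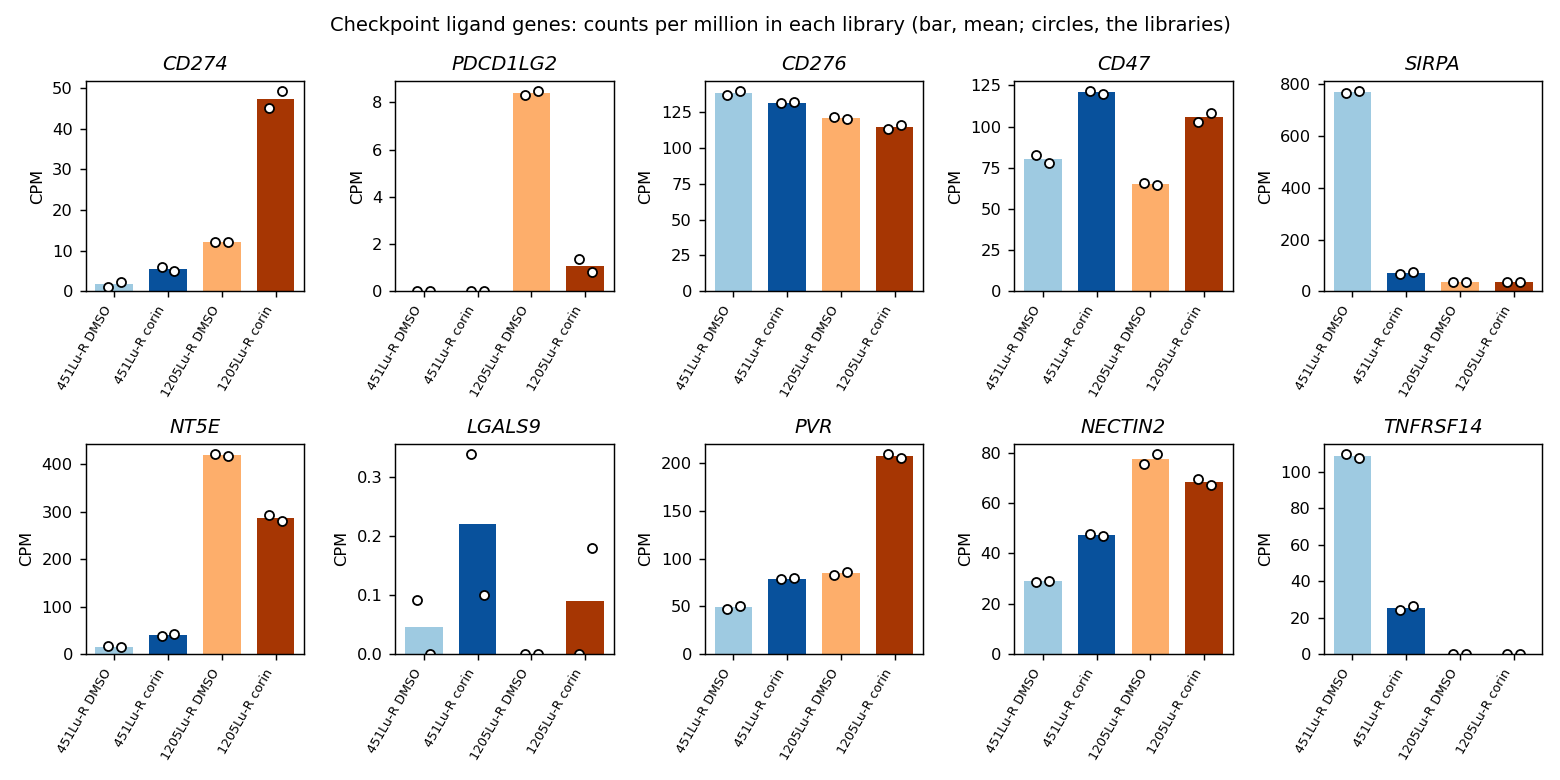
Level in CPM (vertical axis, one scale per gene, starting at 0) of the 10 checkpoint ligand genes in each library; bars are means of 2 libraries and circles are the libraries. CD274 was highest in 1205Lu-R with corin, at 45.1 and 49.2 CPM, while SIRPA was at 765 and 773 CPM in 451Lu-R with DMSO and below 80 CPM elsewhere.

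CD274, the PD-L1 gene, rose in both lines from different starting levels. In 451Lu-R it had 13 and 22 counts with DMSO against 71 and 51 with corin, or 1.19 and 2.28 CPM against 6.02 and 5.10 CPM. In 1205Lu-R it had 134 and 130 counts with DMSO against 429 and 547 with corin, or 12.1 and 12.2 CPM against 45.1 and 49.2 CPM. The groups did not overlap in either line, and the 1205Lu-R DMSO libraries were above the 451Lu-R corin libraries. The fold change was 3.49 in 451Lu-R (log2 1.80, SE 0.29, adjusted p = 9.87e-06) and 3.69 in 1205Lu-R (log2 1.88, SE 0.09, adjusted p = 2.22e-14). Whether more cells carried the transcript or each cell carried more of it cannot be told apart in bulk libraries, here or below. The responses differed by 0.04 on the log2 scale (1205Lu-R minus 451Lu-R, 95% interval -0.71 to 0.78, adjusted p = 0.979). The low counts of 451Lu-R set that width, and a difference between the lines of up to about that size was not detectable. CD274 lies at chr9:5450503-5470566 (GRCh38, plus strand, ENSG00000120217.14).

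PDCD1LG2, the gene for the other PD-1 ligand, moved the opposite way to its neighbour. It begins 39965 bp past the end of CD274 on the same strand (chr9:5510531-5571282, ENSG00000197646.8). It had 92 and 90 counts in 1205Lu-R with DMSO against 13 and 9 with corin, or 8.31 and 8.47 CPM against 1.37 and 0.81 CPM. This was an 8.19-fold decrease (log2 -3.03, SE 0.26, adjusted p = 5.96e-10). In 451Lu-R it had 0 counts in all 4 libraries, so no response could be measured there. CD274 was thus the more abundant of the PD-1 ligand genes per exon length in 1205Lu-R with corin (11.5 CPM per kb against 0.447), while with DMSO PDCD1LG2 was slightly above it (3.45 against 2.96 CPM per kb). PLGRKT, which ends 12578 bp before CD274 and encodes a plasminogen receptor, rose in both lines (log2 0.47, SE 0.13, adjusted p = 0.00266 in 451Lu-R and log2 0.86, SE 0.13, adjusted p = 3.64e-06 in 1205Lu-R). RIC1, the nearest coding gene on the far side of PDCD1LG2 at 57743 bp, rose as well (log2 1.13, SE 0.07, adjusted p = 1.56e-11 and log2 0.75, SE 0.08, adjusted p = 2.22e-08). Of these 4 neighbouring genes, PDCD1LG2 was the one that fell in 1205Lu-R. A lncRNA annotated between PDCD1LG2 and RIC1 (ENSG00000231509) was not analysed here.

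**Figure D2:**
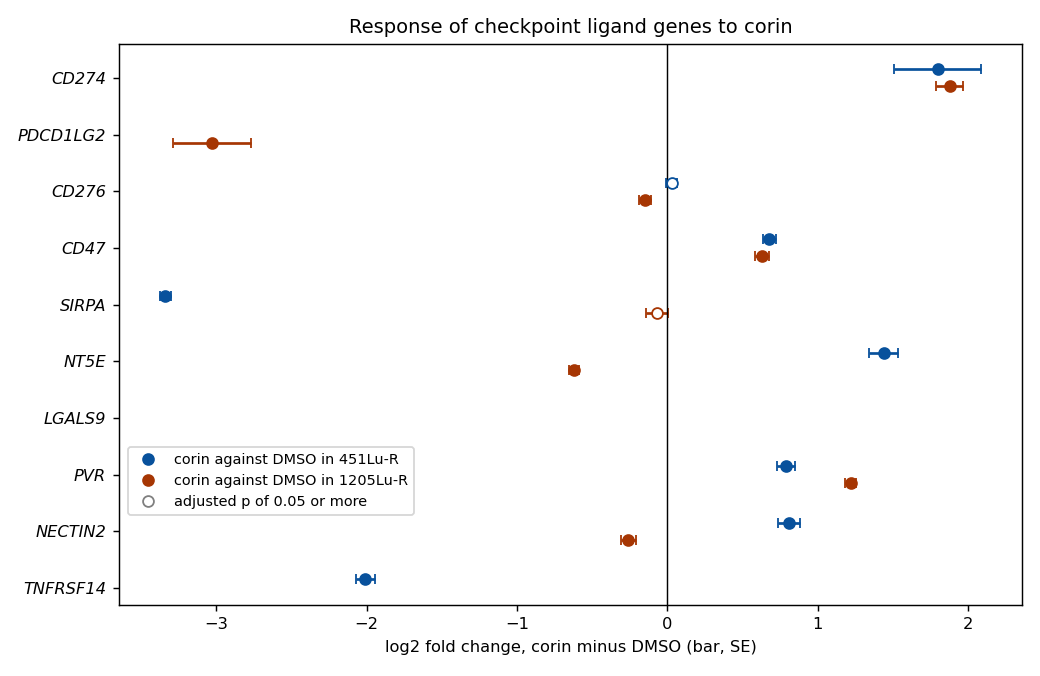
Log2 fold change of each member, corin minus DMSO (horizontal axis), with its SE, in 451Lu-R (blue) and 1205Lu-R (brown); open circles did not pass the adjusted p of 0.05, and members without a circle were not tested in that line. CD274, CD47 and PVR lie to the right of 0 in both lines, NT5E and NECTIN2 on opposite sides, and the CD276 and 1205Lu-R SIRPA estimates, close to 0, change sign or lose their call when libraries are scaled by total counts alone.

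PVR, the ligand with the highest affinity for TIGIT, rose in both lines and more in 1205Lu-R. It had 514 and 491 counts in 451Lu-R with DMSO against 924 and 801 with corin, or 47.1 and 50.8 CPM against 78.3 and 80.0 CPM. It had 918 counts in each 1205Lu-R DMSO library and 1999 and 2280 with corin, or 83.0 and 86.4 CPM against 210.1 and 205.2 CPM. The increase was 1.73-fold in 451Lu-R (log2 0.79, SE 0.06, adjusted p = 1.8e-10) and 2.33-fold in 1205Lu-R (log2 1.22, SE 0.04, adjusted p = 1.82e-17). The difference of 0.39 in log2 response (SE 0.07) passed the test (adjusted p = 6.49e-05). PVR is at chr19:44643798-44666162 (plus strand, ENSG00000073008.15). It shares 121 bp of exon with CEACAM19, which had 0 to 4 counts, and 2028 bp with ENSG00000279095, which was not analysed here.

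NECTIN2, which lies on the same chromosome arm (chr19:44846175-44889223, ENSG00000130202.10) and binds TIGIT and CD226 more weakly, went up in 451Lu-R but down in 1205Lu-R. Its libraries held 312 and 281 counts with DMSO against 561 and 471 with corin in 451Lu-R, or 28.6 and 29.1 CPM against 47.6 and 47.1 CPM. In 1205Lu-R they held 835 and 845 counts with DMSO against 660 and 745 with corin, or 75.5 and 79.6 CPM against 69.4 and 67.0 CPM. The groups did not overlap in CPM in either line. The changes were 1.76-fold up (log2 0.81, SE 0.07, adjusted p = 3.07e-09) and 1.2-fold down (log2 -0.26, SE 0.05, adjusted p = 7.92e-05). Their difference was -1.11 (SE 0.08, adjusted p = 2.62e-10). In the CD226 and TIGIT ligand pair, then, PVR was the gene whose level with corin exceeded that with DMSO in both lines.

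CD47, the "don't eat me" signal read by macrophages, rose in both lines. It had 903 and 755 counts in 451Lu-R with DMSO against 1433 and 1198 with corin, or 82.8 and 78.2 CPM against 121.5 and 119.8 CPM. In 1205Lu-R it had 726 and 685 counts against 979 and 1202, or 65.6 and 64.5 CPM against 102.9 and 108.2 CPM. The increases were 1.6-fold (log2 0.68, SE 0.05, adjusted p = 2.66e-11) and 1.54-fold (log2 0.63, SE 0.05, adjusted p = 5.92e-11). The difference in response was -0.09 (95% interval -0.23 to 0.05, adjusted p = 0.268), and 0.12 with libraries scaled by total counts alone. CD47 is at chr3:108043091-108091862 (minus strand, ENSG00000196776.16).

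SIRPA, the receptor for CD47 on macrophages, fell in 451Lu-R and did not pass the test in 1205Lu-R. Its libraries held 8344 and 7470 counts in 451Lu-R with DMSO against 788 and 762 with corin, or 765 and 773 CPM against 66.8 and 76.2 CPM. In 1205Lu-R it had 392 and 381 counts with DMSO against 353 and 383 with corin, or 35.4 and 35.9 CPM against 37.1 and 34.5 CPM. The 451Lu-R groups were far apart, the 1205Lu-R groups overlapped, and corin-treated 451Lu-R stayed above both 1205Lu-R groups. The decrease in 451Lu-R was 10.1-fold (log2 -3.34, SE 0.04, adjusted p = 2.33e-23). In 1205Lu-R the log2 difference was -0.07 (95% interval -0.22 to 0.08, adjusted p = 0.384), and 0.00 with libraries scaled by total counts alone. The responses differed by 3.23 on the log2 scale (SE 0.10, adjusted p = 1.1e-16). SIRPA, at chr20:1894167-1940592 (plus strand, ENSG00000198053.11), shares 208 bp of exon with a lncRNA on the opposite strand (ENSG00000276649, 2 to 119 counts). Among other genes of this axis, QPCTL, the enzyme that modifies CD47 for SIRPA binding, fell in 451Lu-R from 169 and 138 counts to 54 and 61 (log2 -1.40, SE 0.16, adjusted p = 8.97e-08). In 1205Lu-R QPCTL had 34 and 26 counts with DMSO against 31 and 30 with corin (log2 0.03, SE 0.28, adjusted p = 0.938).

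Of the 11 genes on the CD47 and SIRP list, 8 were tested in each line. In 451Lu-R 3 rose (41.3% of all genes did) and 3 fell (38.6%), with a median log2 of -0.01. In 1205Lu-R 4 rose (40.4% of all genes) and 2 fell (37.8%), with a median of 0.07. With libraries scaled by total counts alone, 3 rose and 4 fell in the former and 4 rose and 1 fell in the latter. THBS1, a secreted matrix protein that also binds CD47, was at 2834 CPM in 1205Lu-R with DMSO and 5743 CPM with corin (log2 0.95, SE 0.0062, adjusted p = 1.5e-29). In 451Lu-R it had 10 and 6 counts with DMSO against 41 and 35 with corin (log2 2.25, SE 0.36, adjusted p = 9.83e-06). THBS2, a related protein, rose from 1346 to 1691 CPM in 1205Lu-R (log2 0.26, SE 0.02, adjusted p = 1.16e-12) and went from 3 and 1 counts to 55 and 39 in 451Lu-R. PTPN11, the phosphatase SHP2 recruited by SIRPA, fell in 1205Lu-R from 287.7 to 192.9 CPM (log2 -0.65, SE 0.03, adjusted p = 6.02e-14). SIRPG, another CD47 receptor that marks T cells, had at most 2 counts in each library.

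NT5E, the adenosine-producing ectoenzyme, was far more abundant in 1205Lu-R, and corin narrowed the gap from both sides. It had 183 and 143 counts in 451Lu-R with DMSO against 440 and 434 with corin, or 16.8 and 14.8 CPM against 37.3 and 43.4 CPM. In 1205Lu-R it had 4673 and 4436 counts with DMSO against 2787 and 3127 with corin, or 422.3 and 417.7 CPM against 292.8 and 281.4 CPM. The groups did not overlap within either line. In 451Lu-R NT5E rose 2.71-fold (log2 1.44, SE 0.10, adjusted p = 4.14e-11) while in 1205Lu-R it fell 1.54-fold (log2 -0.62, SE 0.03, adjusted p = 3.35e-14). The difference was -2.10 (SE 0.10, adjusted p = 2.78e-13). The 1205Lu-R excess was 28.5-fold with DMSO and 6.72-fold with corin. NT5E is at chr6:85449584-85495791 (plus strand, ENSG00000135318.12).

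The adenosine pathway list held 13 genes, NT5E included. In 451Lu-R 10 were tested, of which 9 rose (41.3% of all genes did) and 0 fell (38.6%), with a median log2 of 1.08. DESeq2 did not call the rises of ADORA2B (adjusted p = 0.105) and ENTPD1, and 0 also fell by an unadjusted p of 0.05 or by DESeq2. In 1205Lu-R 11 were tested, of which 7 rose (40.4% of all genes) and 3 fell (37.8%), with a median of 0.59. DESeq2 did not call ADA (adjusted p = 0.108) or SLC29A1 (adjusted p = 0.078) higher there, or ADORA2B (adjusted p = 0.0854) lower. Whether the list differs from that background was not tested. ADA, adenosine deaminase, was the tested gene that did not pass in 451Lu-R (log2 -0.15, adjusted p = 0.235). ENPP1, an ectoenzyme that makes AMP from ATP, rose from 16.9 to 83.9 CPM in 451Lu-R (log2 2.42, SE 0.07, adjusted p = 8.63e-17) and from 18.6 to 48.6 CPM in 1205Lu-R (log2 1.31, SE 0.08, adjusted p = 3.92e-12). ADORA2A, the adenosine receptor best known from T cells, had 0 counts in both 451Lu-R DMSO libraries and 70 and 61 with corin. In 1205Lu-R it had 0 and 2 counts with DMSO against 22 and 40 with corin. ADORA1, another adenosine receptor, had 2 counts in each 451Lu-R DMSO library and 87 and 74 with corin. In 1205Lu-R ADORA1 fell from 101 and 97 counts to 60 and 73 (log2 -0.57, SE 0.16, adjusted p = 0.00202). ADK, adenosine kinase, rose in 1205Lu-R from 38.6 to 70.6 CPM (log2 0.80, SE 0.06, adjusted p = 3.98e-11), and SLC29A2, a nucleoside transporter, went there from 2 and 0 counts to 27 and 25. Both also rose in 451Lu-R, ADK by 1.06 on the log2 scale (SE 0.10, adjusted p = 9.55e-09) and SLC29A2 by 0.94 (SE 0.24, adjusted p = 0.00136). ENTPD1 (CD39), the classical partner of NT5E that makes AMP from ATP and ADP, was at 0.863 to 2.25 CPM in the 4 groups. It had 10 and 13 counts with DMSO against 26 and 23 with corin in 451Lu-R (log2 1.10, SE 0.36, adjusted p = 0.00988, a call that DESeq2 did not make, adjusted p = 0.153), and 7 and 12 against 11 and 14 in 1205Lu-R (log2 0.39, SE 0.45, adjusted p = 0.437).

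TNFRSF14 had counts in 451Lu-R and none in 1205Lu-R. Its libraries held 1199 and 1042 counts with DMSO against 286 and 265 with corin, or 110.0 and 107.8 CPM against 24.2 and 26.5 CPM, a 4.02-fold decrease (log2 -2.01, SE 0.06, adjusted p = 1.77e-16). All 4 libraries of 1205Lu-R had 0 counts. TNFRSF14 lies at chr1:2555639-2565382 (plus strand, ENSG00000157873.17). It shares 826 bp, 13.3% of its exon length, with TNFRSF14-AS1 on the other strand, which had between 0 and 42 counts. BTLA, its inhibitory receptor on lymphocytes, had at most 2 counts in each library.

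CD276, the B7-H3 gene, lay between 112.7 and 139.4 CPM in the 8 libraries. It had 1490 and 1348 counts in 451Lu-R with DMSO against 1544 and 1318 with corin, or 136.7 and 139.4 CPM against 130.9 and 131.8 CPM. In 1205Lu-R it had 1343 and 1276 counts with DMSO against 1073 and 1289 with corin, or 121.3 and 120.1 CPM against 112.7 and 116.0 CPM. In CPM, the corin libraries lay below the DMSO libraries in both lines, and the fits add a scaling factor per library, which is of the same order as this gap. In 451Lu-R the log2 change was 0.03 (95% interval -0.05 to 0.11, adjusted p = 0.509), and -0.07 with libraries scaled by total counts alone (adjusted p = 0.0862). In 1205Lu-R it fell 1.11-fold (log2 -0.15, SE 0.04, adjusted p = 0.00151), a call lost with that scaling (log2 -0.08, adjusted p = 0.0845). The difference in response of -0.22 (adjusted p = 0.0022) was lost too (adjusted p = 0.987). CD276 is at chr15:73683966-73714514 (plus strand, ENSG00000103855.18). LGALS9 (chr17:27629798-27649560, ENSG00000168961.17) had 0 to 4 counts in each library, and its near-identical relatives LGALS9B and LGALS9C also had 0 to 4, so no response could be measured.

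The responses of 7 members could be compared between the lines by the interaction term. It was higher in 1205Lu-R for 2 of them, PVR and SIRPA (22.6% of the 16062 genes tested), and lower for 3, NECTIN2, NT5E and CD276 (27.1%). For CD274 and CD47 it did not pass. Of all genes called, 45.4% were higher in 1205Lu-R, and 64.0% with libraries scaled by total counts alone, under which the median of all genes moved from -0.01 to 0.20. PDCD1LG2 and TNFRSF14, at 0 in all libraries of one line, gave no estimate.

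With DMSO, the lines differed in most members. Of 9 tested, 5 were higher in 1205Lu-R (41.0% of 14104 genes) and 3 were lower (41.5%), with a median of 0.90 beside -0.01 over all genes. NT5E was 28.5-fold higher in 1205Lu-R (log2 4.83, SE 0.05, adjusted p = 1.05e-29), CD274 7.64-fold (log2 2.93, SE 0.23, adjusted p = 1.18e-11), NECTIN2 2.89-fold (log2 1.53, SE 0.06, adjusted p = 4.77e-17) and PVR 1.86-fold (log2 0.90, SE 0.06, adjusted p = 2.53e-13). PDCD1LG2 was at least 28.7-fold higher in 1205Lu-R, taking 3 counts in each 451Lu-R library as the floor. SIRPA was 20-fold lower in 1205Lu-R (log2 -4.32, SE 0.04, adjusted p = 2.33e-31), and TNFRSF14 at least 393-fold lower by the same floor. CD47 was 1.15-fold lower (log2 -0.20, SE 0.05, adjusted p = 0.00124), a call that DESeq2 did not make (adjusted p = 0.0519), and CD276 did not pass (log2 -0.09, 95% interval -0.17 to 0.00, adjusted p = 0.0508). CD276 was called lower with libraries scaled by total counts alone (log2 -0.19, adjusted p = 0.000149) and without 451Lu-R DMSO replicate 1 (log2 -0.11, adjusted p = 0.0462), with adjusted p of 0.0508 to 0.359 under the other alternatives.

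With corin, 8 members were tested, of which 4 were higher in 1205Lu-R (39.0% of 15363 genes) and 4 lower (40.2%), with a median of 0.08 beside -0.01. These libraries are shared with the comparisons of corin with DMSO above. CD274 was 7.93-fold higher in 1205Lu-R (log2 2.99, SE 0.10, adjusted p = 8.7e-15), next to 7.64-fold with DMSO. The distance between the lines was smaller with corin than with DMSO for NT5E (6.72-fold), NECTIN2 (1.35-fold) and SIRPA (2.12-fold, higher in 451Lu-R) and larger for PVR (2.46-fold), the members whose interaction terms are given above. TNFRSF14 was at least 86.7-fold lower in 1205Lu-R. PDCD1LG2, at 13 and 9 counts in 1205Lu-R and 0 in 451Lu-R, was too low to be tested and was at least 3.93-fold higher in 1205Lu-R.

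**Figure D3:**
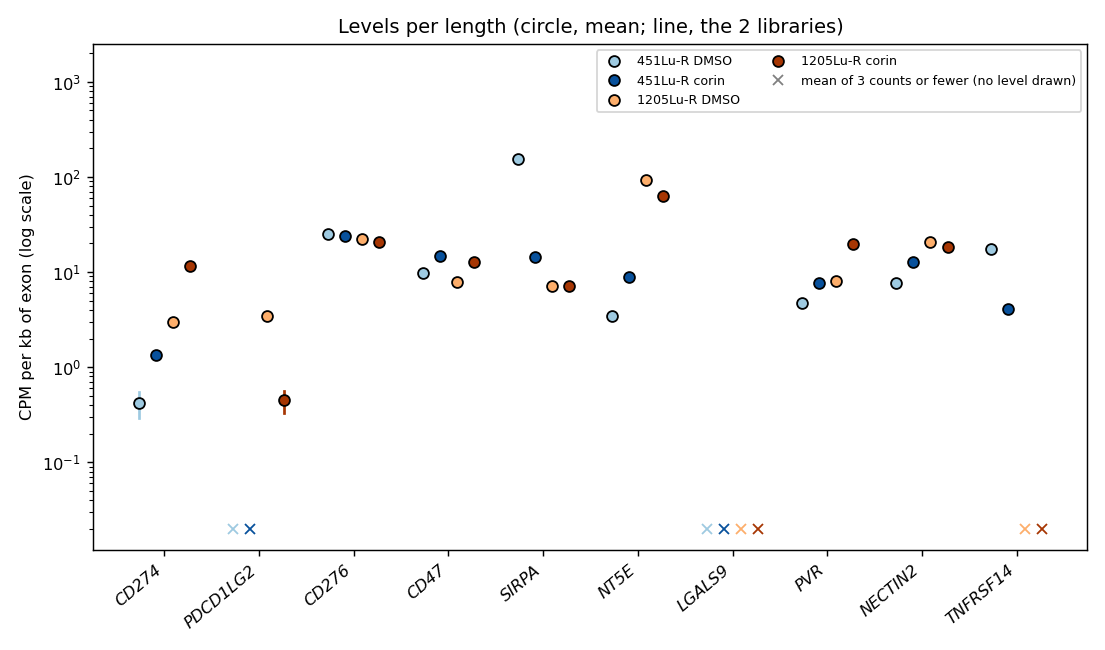
Level of each member in CPM per kb of exon (vertical axis, log scale) in the 4 groups; circles are means and lines span the 2 libraries, and crosses at the foot mark groups with a mean of 3 counts or fewer, for which no level is drawn. SIRPA led in 451Lu-R with DMSO at 155 CPM per kb and NT5E in 1205Lu-R with DMSO at 92.7 CPM per kb, while CD276 stayed between 20.9 and 25.2 CPM per kb.

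Per length of exon, the order of the members differed between the lines. In 451Lu-R with DMSO, SIRPA led (155 CPM per kb), followed by CD276 (25.2), TNFRSF14 (17.5), CD47 (9.78), NECTIN2 (7.71), PVR (4.70), NT5E (3.48) and CD274 (0.422), and no neighbours in this order overlapped between their libraries. With corin, CD276 came first there (24.0), and CD47 (14.6) and SIRPA (14.4), next in the order, overlapped. In 1205Lu-R with DMSO, NT5E led (92.7 CPM per kb), then CD276 (22.0) and NECTIN2 (20.7), and PVR (8.12) and CD47 (7.90) overlapped. With corin, NT5E (63.3), CD276 (20.9) and PVR (19.9) were the first 3, and CD274 (11.5) had passed SIRPA (7.22). With the longest transcript as the length, 4 members changed rank in 451Lu-R with corin and none in the other groups.

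Other co-signalling ligands changed in both directions. Of 31 listed genes, 30 had a row (CD80 was not analysed here). In 451Lu-R 19 were tested, of which 12 rose (41.3% of all genes did) and 7 fell (38.6%), with a median log2 of 0.66. DESeq2, an alternative test, called only 3 lower and did not call the rise of BTN2A1 (adjusted p = 0.214). In 1205Lu-R 20 were tested, of which 10 rose (40.4% of all genes), 4 fell (37.8%) and 6 did not pass (median 0.17). DESeq2 did not call CEACAM1 (adjusted p = 0.0708), LGALS1 (0.0615) or NECTIN1 (0.0967) higher there, or CD200 (0.117) lower. TNFSF9 (4-1BB ligand), which costimulates T cells, rose from 5.64 to 137.7 CPM in 451Lu-R (log2 4.70, SE 0.09, adjusted p = 5.41e-20). The 1205Lu-R values went from 36.6 to 203.0 CPM (log2 2.40, SE 0.05, adjusted p = 1.75e-21). CADM1, an adhesion protein bound by the lymphocyte receptor CRTAM, rose from 25.0 to 207.7 CPM in 451Lu-R (log2 3.15, SE 0.05, adjusted p = 3.5e-21), and TNFSF4 (OX40 ligand) went from 4 and 8 counts to 44 and 27 (log2 2.55, SE 0.41, adjusted p = 1.29e-05). CD40, on this list though it is a receptor, had 0 counts in both 451Lu-R DMSO libraries and 29 and 26 with corin. In 1205Lu-R, the butyrophilin genes BTN2A2 (5.70 to 15.1 CPM, log2 1.32, SE 0.15, adjusted p = 4.18e-08) and BTN3A2 (22.9 to 45.3 CPM, log2 0.91, SE 0.08, adjusted p = 6.02e-10) rose. In 451Lu-R BTN2A2 fell by 0.47 on the log2 scale (adjusted p = 0.000126), and BTN3A2 had a log2 change of -0.26 (adjusted p = 0.0041) that DESeq2 did not call (adjusted p = 0.0615). VSIR (VISTA), an inhibitory B7 family member, rose in 1205Lu-R from 9.75 to 19.2 CPM (log2 0.90, SE 0.13, adjusted p = 1.23e-06) and had 0 to 2 counts in each 451Lu-R library.

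**Figure D4:**
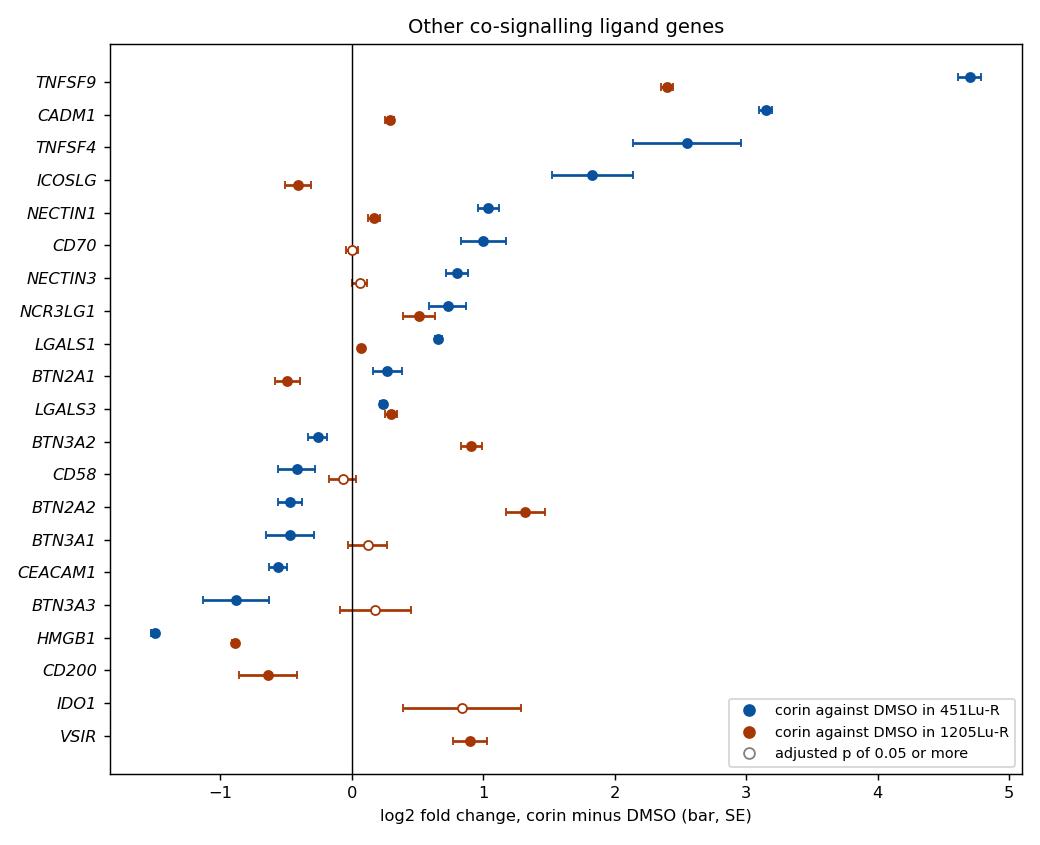
Log2 fold change, corin minus DMSO (horizontal axis), with SE, of the 21 other co-signalling ligand genes that could be tested in 451Lu-R (blue) or 1205Lu-R (brown) with a mean of more than 3 counts in each group; open circles did not pass the adjusted p of 0.05. TNFSF9 is farthest to the right in both lines, at 4.70 and 2.40.

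Genes of interferon-gamma signalling and of CD274 regulation, 17 in all, were nearly all measured. In 451Lu-R 11 rose (41.3% of all genes did), 5 fell (38.6%) and 1 did not pass (median log2 0.56). In 1205Lu-R 8 of 16 tested rose (40.4% of all genes), 6 fell (37.8%) and 2 did not pass (median 0.12). IRF1, a direct activator of CD274, rose in 451Lu-R from 7.13 to 19.5 CPM (log2 1.56, SE 0.12, adjusted p = 6.31e-10) and in 1205Lu-R from 46.1 to 61.2 CPM (log2 0.33, SE 0.06, adjusted p = 4.75e-05). JAK2, the receptor kinase encoded on the same chromosome as CD274, fell in both, from 77.1 to 19.8 CPM (log2 -1.86, SE 0.07, adjusted p = 6.97e-15) and from 20.3 to 14.5 CPM (log2 -0.55, SE 0.11, adjusted p = 0.000109). The receptor chains parted in both lines. In 1205Lu-R IFNGR1 rose from 16.0 to 44.1 CPM (log2 1.39, SE 0.09, adjusted p = 1.8e-12) and IFNGR2 fell from 84.0 to 21.8 CPM (log2 -2.02, SE 0.07, adjusted p = 2e-16). In 451Lu-R IFNGR1 rose from 24.3 to 52.5 CPM (log2 1.22, SE 0.08, adjusted p = 1.51e-11) and IFNGR2 fell from 44.3 to 21.3 CPM (log2 -0.96, SE 0.08, adjusted p = 6.3e-10).

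The feedback inhibitor SOCS3 rose in both lines (log2 2.52, SE 0.14, adjusted p = 2.74e-12 in 451Lu-R and log2 1.78, SE 0.06, adjusted p = 9.5e-18 in 1205Lu-R), as did NLRC5, the activator of MHC class I genes (log2 3.47, SE 0.18, adjusted p = 6.41e-13 and log2 1.71, SE 0.15, adjusted p = 1.17e-09). SOCS1, a related inhibitor, went from 3 and 1 counts to 36 and 21 in 451Lu-R. CD74, the MHC class II invariant chain, rose there from 28 and 8 counts to 78 and 69 (log2 2.04, SE 0.30, adjusted p = 4.55e-06). CMTM6, which keeps the PD-L1 protein from being degraded, rose slightly in 451Lu-R, from 94.9 to 114.0 CPM (log2 0.37, SE 0.04, adjusted p = 2.15e-07), and fell in 1205Lu-R, from 214.5 to 156.4 CPM (log2 -0.53, SE 0.04, adjusted p = 4.3e-11). Their difference was -0.94 (SE 0.06, adjusted p = 7.18e-11).

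Over the 8 libraries, the genes most like CD274 by Pearson's r of log2(CPM + 1), among 14432 genes with a mean of at least 1 CPM, were TXNDC9 (r = 0.997), the lncRNA ENSG00000287001 (0.996) and CD302 (0.995). The genes most like PDCD1LG2 were TRAM2 (0.998), ENSG00000287673 (0.998) and PITPNM2 (0.997). These values describe 8 points in 4 pairs, which share the lines and the treatment. CD302, a C-type lectin receptor, had means of 6.84 CPM (DMSO) and 10.6 CPM (corin) in 451Lu-R, and of 17.3 and 39.3 CPM in 1205Lu-R. TRAM2, a membrane protein of the translocon, had means of 55.7 CPM (DMSO) and 50.2 CPM (corin) in 451Lu-R, and of 319 and 93.9 CPM in 1205Lu-R.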

How the data were processed

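RNA of cultured melanoma cells from the lines 451Lu-R and 1205Lu-R was sequenced in bulk. Reads were trimmed (trimmomatic) and assigned to GENCODE v32 transcripts by salmon, summed per gene; versions are not given in the sources used here. The authors deposited these expected counts, salmon's estimated counts per gene, without normalization, for 8 libraries of 9516687 to 11797788 counts. For the 8 samples with PLX4032, the deposited tables hold only the authors' fold changes and adjusted p-values and were not used. Symbols came from GENCODE 44, which matched 34052 of 34228 identifiers. Coordinates and exon lengths are also from GENCODE 44 (GRCh38).

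Estimated counts were rounded and tested with edgeR 4.0.16 in R 4.3.3 (filterByExpr, TMM, glmQLFit and glmQLFTest, 2-sided), with Benjamini-Hochberg adjustment over all genes tested and calls at an adjusted p under 0.05. SE is the log2 fold change divided by the square root of F. CPM scale each library total to 1000000, without the TMM factor of the fits. A gene with a mean of 3 counts or fewer in a group was taken as at the floor, and folds against it are bounds. Such a gene, where tested, passed the filter on low counts through the other group alone and could be called in a single direction. The counts and medians of the lists include such genes. Counts give counting error only. Other lists name at most 4 genes per line, those with the largest changes at a mean of at least 1 CPM, besides genes given for their role (PDCD1, SIRPG, TIGIT, BTLA, JAK2, IRF1, CMTM6, ENTPD1, QPCTL and neighbours of CD274 and PDCD1LG2), and some genes of these lists are not reported here by name. The members and lists were chosen with earlier results of these data known. Alternatives were RLE size factors, library size only, DESeq2 1.42.0, other filters, thresholds, a replicate block, a joint fit, leaving out each library and transcript length.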

Additional observations from a re-analysis of the deposited data

Results flagged for a closer look

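For 5 members the response to corin differed between the cell lines by the interaction test (1205Lu-R minus 451Lu-R, log2 scale). SIRPA gave 3.23, with a log2 change of -3.34 in 451Lu-R and no call in 1205Lu-R. NT5E gave -2.10 and NECTIN2 -1.11, both higher with corin in 451Lu-R and lower in 1205Lu-R. PVR gave 0.39, with a rise in both lines. CD276 gave -0.22, a call lost when libraries were scaled by total counts alone. Groups of 2 libraries are too small for a search for single outlying libraries.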

How the results depend on the processing

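Over 37 fold changes of single members and all alternatives, 455 of 502 values kept their direction and call, 39 lost the call (36 of them only because a minimum fold was required), 2 gained one and 6 changed sign. With libraries scaled by total counts alone, the change of CD276 in 451Lu-R became -0.07, that of SIRPA in 1205Lu-R 0.00, and the difference between lines for CD47 0.12; these were not called in either fit. The difference between lines for CD274 ranged from -0.48 to 0.44 without 1 library at a time, where the lone library of a group is assumed to vary like the others. It changed sign without 451Lu-R DMSO replicate 2 (-0.48), 451Lu-R corin replicate 2 (-0.06) or 1205Lu-R corin replicate 2 (-0.01).

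Requiring 2-fold as well left 2 members that rose in 451Lu-R, 1 that fell in 1205Lu-R, 1 with a higher response in 1205Lu-R, and 2 lower in 1205Lu-R with corin. At 4-fold and an adjusted p under 0.001, 0 members rose in either line, since with all libraries no rise reached 4-fold by edgeR or DESeq2. The log2 change of CD274 in 451Lu-R, 1.80 with all libraries, ranged from 1.38 to 2.31 without 1 library at a time. Under the same thresholds 1 member fell in 1205Lu-R, and 1 response was higher and 1 lower there. With DMSO 3 members were higher in 1205Lu-R, and with corin 2 were higher and 1 lower. DESeq2 called 3 of the other co-signalling ligands lower in 451Lu-R, where edgeR called 7. The counts of members called stayed within 1.5 times under every other alternative. The labels do not say whether replicate numbers pair the samples. Deviations of same-numbered libraries correlated at -0.006 (451Lu-R) and -0.018 (1205Lu-R). Much of these deviations is counting error, so the values do not settle whether a day or culture was shared. With the replicate block the counts were those of the fit without it: in 451Lu-R 5 members rose and 2 fell, while for 1205Lu-R these were 3 and 4. Depth limits what can be said of LGALS9, of CD274 in 451Lu-R and of PDCD1LG2 with corin.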

Other observations

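Genes for the lymphocyte and macrophage receptors of these ligands were mostly near 0, but a few had counts. Of 14 listed, 4 were tested in 451Lu-R, of which 3 rose (41.3% of all genes did) and 1 fell (38.6%). Their median log2 was 2.26, or 1.94 with PDCD1 at its bound. In 1205Lu-R 2 were tested, CD96 and HAVCR2, and both rose (40.4% of all genes). PDCD1 in 451Lu-R and both genes in 1205Lu-R passed the filter on low counts through their corin libraries alone. They could be called higher but not lower, so these counts and the median say nothing of the receptors beside all genes. CTLA4, an inhibitory T cell receptor, had 13 and 10 counts in 451Lu-R with DMSO against 72 and 51 with corin (log2 2.42, SE 0.29, edgeR adjusted p = 2.24e-07), and 0 or 1 in 1205Lu-R. CD96, a receptor of PVR, had 12 and 11 against 60 and 39 counts in 451Lu-R (log2 2.10, SE 0.31, adjusted p = 3.76e-06) and 4 and 5 against 31 and 34 in 1205Lu-R (log2 2.82, SE 0.42, adjusted p = 2.92e-06). HAVCR2 (TIM-3) had 3 and 5 against 10 and 14 counts in 1205Lu-R (log2 1.55, SE 0.54, adjusted p = 0.0125, a call that DESeq2 did not make). ICOS, a costimulatory receptor, fell in 451Lu-R from 132 and 109 counts to 74 and 54 (log2 -0.90, SE 0.15, adjusted p = 2.69e-05). PDCD1, the gene for PD-1, had 0 counts in 6 libraries and 12 and 10 in 451Lu-R with corin, at least 3.44-fold higher than with DMSO by the floor of 3 counts. TIGIT had 4 and 2 counts there and 0 elsewhere. PTPRC had 0 to 3 counts in each library, while other immune markers were higher with corin (CD14, CSF1R, ITGAX and LYZ in 451Lu-R, CSF1R and ITGAX in 1205Lu-R). Their part in the receptor counts was not tested.

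Of the 17 immune and stromal markers, 13 had a row. In 451Lu-R 6 were tested, of which 5 rose (CSF1R, CD14, VWF, ITGAX and LYZ), where 41.3% of all genes did. CSF1R and CD14 passed the filter on low counts there through their corin libraries alone, so they could be called higher but not lower. DESeq2 did not call LYZ, and CD8A did not pass (log2 -0.43, SE 0.45, edgeR adjusted p = 0.378). There 0 fell (38.6% of all genes), whether by edgeR's adjusted p, an unadjusted p of 0.05 or DESeq2. The median log2 of those tested was 2.12, or 1.91 with genes at the floor set to their bound. In 1205Lu-R 3 of 4 rose (40.4% of all genes) and 1 fell (37.8%), with a median of 2.28. ITGAX rose from 49 and 48 counts to 152 and 125 in 451Lu-R and from 11 and 5 to 54 and 66 in 1205Lu-R. VWF rose from 16 and 12 to 96 and 85, and from 18 and 11 to 181 and 198. CSF1R had 0 counts in both 451Lu-R DMSO libraries and 30 and 31 with corin, and 20 and 11 against 48 and 51 in 1205Lu-R. PECAM1 fell in 1205Lu-R from 100 and 104 counts to 82 and 67 (log2 -0.45, SE 0.17, adjusted p = 0.0185, a call that DESeq2 did not make) and was at 0 in 451Lu-R.

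Among the melanoma lineage genes, 13 were tested in 451Lu-R, of which 3 rose (41.3% of all genes did) and 9 fell (38.6%), with a median log2 of -0.37. In 1205Lu-R 8 were tested, of which 6 rose (40.4% of all genes) and 2 fell (37.8%), with a median of 1.25. NGFR, the neural crest receptor, rose from 14 and 8 counts to 4185 and 3482 in 451Lu-R and from 62 and 65 to 1960 and 2212 in 1205Lu-R. CSPG4, a melanoma surface proteoglycan, fell in both (log2 -2.44, SE 0.03, adjusted p = 5.72e-23 and log2 -1.26, SE 0.04, adjusted p = 1.74e-18).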
